A study of Mus musculus with 8 samples.

Results

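Prostaglandin and leukotriene synthesis was followed through 10 genes in CD11b+ cells of NOD.Idd3 and NOD mice. The genes were listed by name as enzymes and receptors of the pathway, and their probe sets were taken from the platform annotation where a probe set carried a single gene symbol. Of the 10 genes, 9 had such a probe set, 13 probe sets in all, out of 18193 genes on the array with one. Ptgs1, which encodes the constitutive cyclooxygenase COX-1, had none and was not analysed here. The cells carried CD11b, an integrin subunit of monocytes, macrophages and neutrophils, and the sources used here do not name their tissue. They were incubated for 4 h at 37 °C with 5 µg/ml peptidoglycan (PGN), a bacterial cell wall polymer, or left unstimulated. NOD mice develop autoimmune diabetes spontaneously. NOD.Idd3 is a congenic strain on that background, with another allele at the Idd3 locus on chromosome 3. The 4 groups were PGN-treated NOD.Idd3, unstimulated NOD.Idd3, PGN-treated NOD and unstimulated NOD cells, each with 2 arrays numbered as biological replicates. The sources used here name neither the animals' age nor whether arrays came from separate or pooled animals, so p-values measure the spread between these samples only.

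Arachidonic acid is released from membranes by cytosolic phospholipase A2 and then enters 1 of several branches. In the prostaglandin branch, cyclooxygenases form prostaglandin H2, and terminal synthases turn it into prostaglandin E2 and other prostanoids, which act through receptors such as EP2 and EP4. In the leukotriene branch, 5-lipoxygenase, helped by its activating protein FLAP, forms leukotriene A4, which other enzymes convert to leukotriene B4, a neutrophil attractant, or to the cysteinyl leukotrienes. Macrophages and neutrophils make both classes of lipid.

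Values are log2 of the deposited intensities. Medians per array lay between 5.42 and 5.50, 25% of values were under 3.84 to 4.05, and the highest value of any probe set was 15.39. Across genes, the 2 arrays of each group had correlations of 0.985 to 0.991. Itgam, the CD11b gene itself, lay between 7.87 and 9.02. Markers within a cell type differed in brightness. Of the macrophage markers, Csf1r lay between 13.51 and 14.05, but Mertk between 5.73 and 7.65 and Cd163 between 5.71 and 8.63. Of the neutrophil markers, S100a8 lay between 14.32 and 14.65, but Elane between 4.73 and 5.84, near the array medians. In such bulk samples fewer cells of a type and less RNA per cell cannot be told apart.

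With PGN, several prostaglandin E2 synthesis genes rose and the lipoxygenase genes Alox5 and Alox15 fell. Over both strains, Pla2g4a, Ptges and Ptges2 rose and Alox5 and Alox15 fell, which made 5 of 9 measured genes called. Genes were called at a Benjamini-Hochberg adjusted p under 0.05 in limma over all 18193 genes, with 4 PGN-treated and 4 unstimulated arrays. Among all genes, 4.86% were called higher and 6.4% lower. In 6 of the 9 genes the PGN-treated and unstimulated arrays did not overlap, 3 higher and 3 lower, against 8.6% and 9.41% of all genes (18% together). With the replicate number as a block in the fit, Ptgs2 and Alox5ap were called too, which made 4 higher and 3 lower, against 7.21% and 9.73% of all genes. The median log2 change was 0.45 over the 9 genes and 0.05 over all genes.

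**Figure D1:**
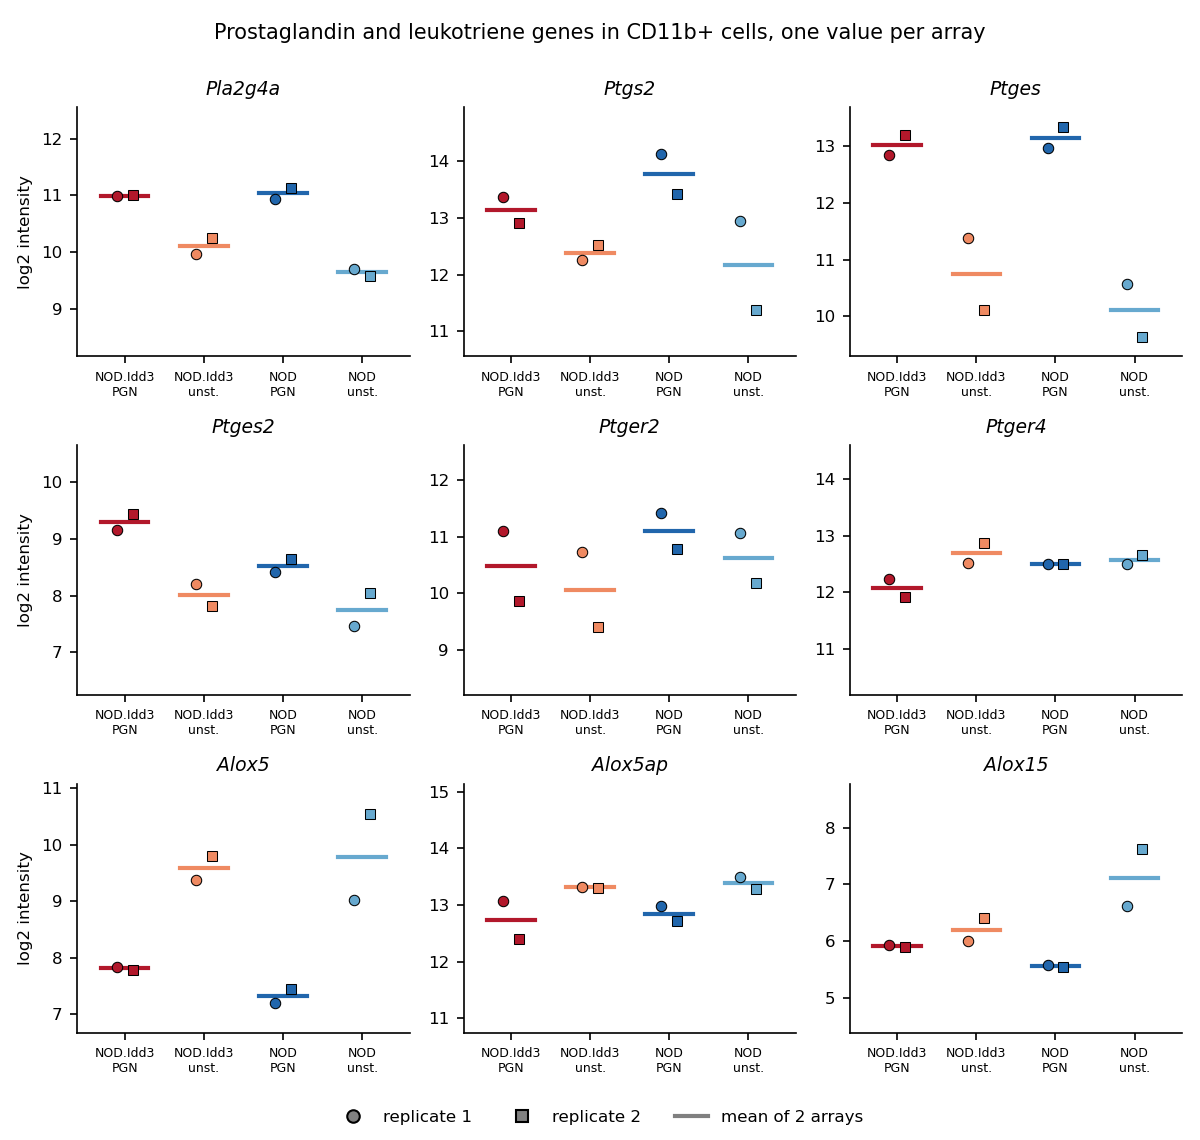
Log2 intensity (vertical axis, each panel spanning the same range of log2 units) of the 9 measured genes in the 4 groups. Each point is 1 array, with circles for replicate 1 and squares for replicate 2, and each bar is the mean of 2 arrays. Pla2g4a, Ptges and Ptges2 were higher and Alox5, Alox5ap and Alox15 lower on every PGN-treated array than on any unstimulated one.

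Pla2g4a encodes cytosolic phospholipase A2 alpha, which releases arachidonic acid. It stood at 10.99 and 11.01 in PGN-treated NOD.Idd3 cells, against 9.96 and 10.25 in unstimulated NOD.Idd3 cells. In NOD cells the values were 10.94 and 11.13 with PGN and 9.70 and 9.58 without. The 4 PGN-treated arrays lay together and above all unstimulated ones. The averaged change was 1.14 ± 0.15 on the log2 scale (SE, 4 arrays per condition), a 2.21-fold rise with an adjusted p of 0.00194 in limma.

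Ptgs2 encodes COX-2, the inducible cyclooxygenase. Its 2 probe sets gave changes of very different size. The brighter one, 1417262_at, which represented the gene in the test, stood at 13.38 and 12.91 in PGN-treated NOD.Idd3 cells, against 12.26 and 12.52 in unstimulated NOD.Idd3 cells. In NOD cells it stood at 14.13 and 13.42 with PGN, against 12.95 and 11.38 without. The unstimulated NOD array of replicate 1 lay above the PGN-treated NOD.Idd3 array of replicate 2, so the conditions overlapped. The change of this probe set was 1.19 ± 0.33 and missed the threshold in limma (adjusted p = 0.0548). With the replicate number as a block in the fit, the same change had an adjusted p of 0.0169.

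The second probe set of Ptgs2, 1417263_at, stood at 12.51 and 11.75 in PGN-treated NOD.Idd3 cells, against 7.82 and 7.30 in unstimulated NOD.Idd3 cells. The NOD values were 12.54 and 12.50 with PGN, against 8.72 and 6.68 without. No PGN-treated array came near an unstimulated one. Tested over all 34945 probe sets with a single symbol, it rose by 4.70 ± 0.40, or 25.9-fold, with an adjusted p of 0.000366 in limma. In that fit 4.92% of probe sets were called higher. With the mean of both probe sets as the gene's value, Ptgs2 rose by 2.94 (adjusted p = 0.00171), in a fit that called 5.35% of genes higher. Both probe sets were higher with PGN in each strain, but the size of the rise depends on which is read. The brighter one reached 14.13, against 15.39 for the brightest probe set of any array, and whether bright signals were compressed was not tested. The change of 1.19 and its missed threshold therefore hold for that probe set only.

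Ptges encodes microsomal prostaglandin E synthase-1, the inducible terminal synthase that is coupled to COX-2. It stood at 12.85 and 13.19 in PGN-treated NOD.Idd3 cells, against 11.37 and 10.10 in unstimulated NOD.Idd3 cells. Its values in NOD cells were 12.96 and 13.34 with PGN, against 10.57 and 9.64 without. The PGN-treated arrays were close to each other, while the unstimulated ones varied more and replicate 1 was the higher in both strains. The averaged rise was 2.66 ± 0.31, or 6.34-fold (adjusted p = 0.00131 in limma), the largest change among the 9 genes on the probe sets tested. The other probe sets of Ptges rose by 3.93 ± 0.33 and 3.74 ± 0.33, with adjusted p-values of 0.000355 and 0.000465 in the fit of all probe sets. On 1449449_at, PGN-treated arrays ran from 11.06 to 12.22 and unstimulated arrays from 7.20 to 8.35. As with Ptgs2, the brightest probe set gave the smallest change.

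**Figure D2:**
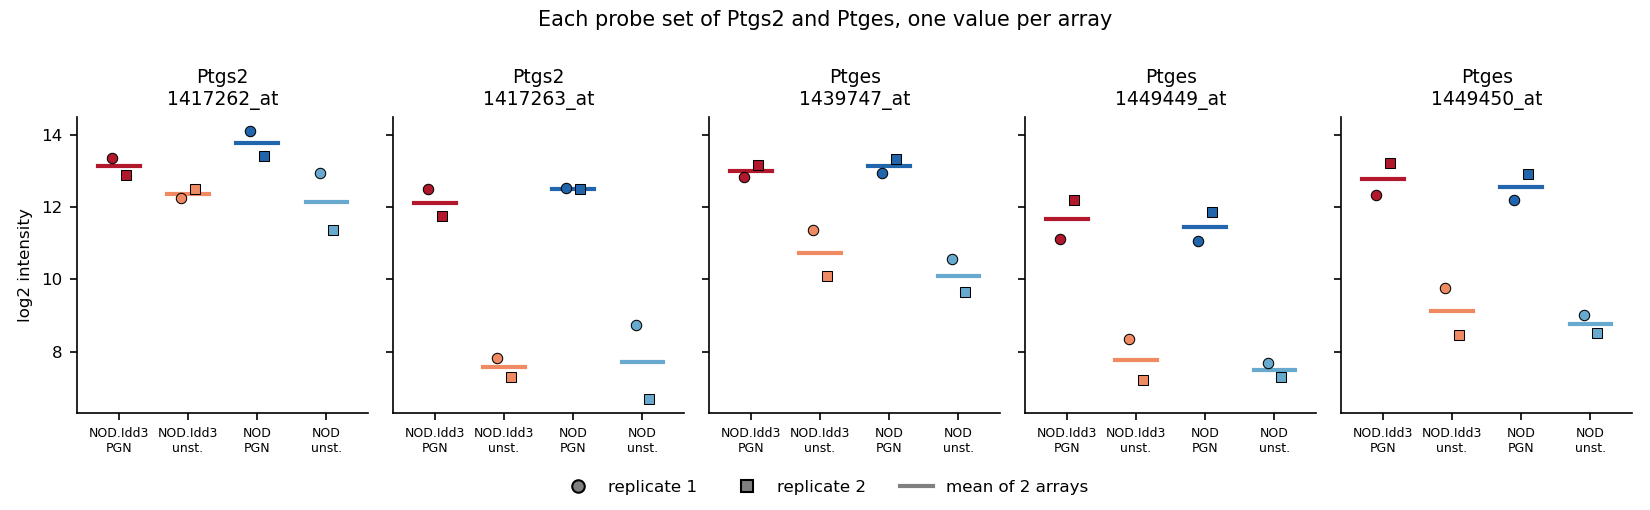
Log2 intensity (vertical axis) on each probe set of Ptgs2 (2 panels) and Ptges (3 panels) in the 4 groups. Points are single arrays, circles for replicate 1 and squares for replicate 2, and bars are means of 2 arrays. Ptgs2 rose by 4.70 on 1417263_at and changed by 1.19 on 1417262_at, where the conditions overlapped.

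Ptges2 encodes microsomal prostaglandin E synthase-2, a second terminal synthase that is usually described as constitutive. It stood at 9.16 and 9.45 in PGN-treated NOD.Idd3 cells, against 8.20 and 7.82 in unstimulated NOD.Idd3 cells. NOD cells had 8.41 and 8.64 with PGN, against 7.46 and 8.05 without. PGN-treated and unstimulated arrays did not overlap, and the averaged rise was 1.03 ± 0.19, or 2.05-fold (adjusted p = 0.00961 in limma).

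The promoters of the inducible pair Ptgs2 and Ptges, which were both higher with PGN, and of Alox5, which fell, are shown as the 250 bases before the RefSeq start of each gene (build GRCm38.p6). Capitals mark every match to the motifs searched within these bases. Matches past the start are not in the printed bases.
Ptgs2 promoter, chr1:150099781-150100030, plus strand: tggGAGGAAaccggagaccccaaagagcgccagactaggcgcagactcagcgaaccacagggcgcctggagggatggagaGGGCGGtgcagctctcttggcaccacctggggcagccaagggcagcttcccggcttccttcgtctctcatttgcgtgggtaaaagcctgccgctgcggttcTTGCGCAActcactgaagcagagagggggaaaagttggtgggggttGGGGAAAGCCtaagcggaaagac
Ptges promoter, chr2:30903298-30903547, minus strand: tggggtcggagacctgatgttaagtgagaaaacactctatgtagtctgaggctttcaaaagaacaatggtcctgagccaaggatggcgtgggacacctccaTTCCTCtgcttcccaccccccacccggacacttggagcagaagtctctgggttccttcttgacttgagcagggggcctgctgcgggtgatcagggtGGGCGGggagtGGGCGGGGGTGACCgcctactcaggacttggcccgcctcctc
Alox5 promoter, chr6:116461179-116461428, minus strand: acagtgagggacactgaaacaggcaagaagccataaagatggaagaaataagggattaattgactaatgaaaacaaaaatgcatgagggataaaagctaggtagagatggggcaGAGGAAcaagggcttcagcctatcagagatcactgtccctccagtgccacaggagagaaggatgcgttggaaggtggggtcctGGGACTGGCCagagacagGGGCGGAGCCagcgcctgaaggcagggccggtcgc
Of the 10 listed genes, 8 had promoter sequences. The search covered both strands of the whole 300-base windows, which run 50 bases past the start, and the shares are those of 32851 such windows of all genes. The motifs were NF-kB as GGG, any 5 bases and CC (50.8% of windows), CRE as TGACGT (7.51%), E-box as CACGTG (7.15%), C/EBP as TTGCNNAA (10.8%) and AP-1 as TGANTCA (7.81%). The others were the GC box as GGGCGG (35.7%), the TATA box as TATAAA (13.6%) and PU.1 as GAGGAA (28.3%). The NF-kB pattern is loose, as its share shows.

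The Ptgs2 window held a C/EBP match at bases -69 to -62, counted from the start, with -1 the base before it. Past the start it held a CRE match at bases 13 to 18 that overlapped an E-box match at bases 17 to 22. The same window also held NF-kB, GC box and PU.1 matches, at bases -23 to -14, -170 to -165 and -247 to -242. No other window of the listed genes held a CRE match. A C/EBP match was also in the Ptger2 window, at bases 40 to 47, and an E-box match in the Ptges2 window, at bases -77 to -72. Sites for C/EBP and CREB-type factors near the Ptgs2 start are textbook elements of its induction in macrophages. The Ptges window held 2 GC boxes, at bases -53 to -48 and -42 to -37, the second overlapping an NF-kB match, and GC boxes there are known to bind Egr1. The Alox5 window held a GC box at bases -35 to -30 that overlapped 1 of its 3 NF-kB matches. All of these are matches of letters and not measured binding.

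Neither gene for an EP receptor of prostaglandin E2 passed the test with PGN. Ptger2 encodes EP2, which raises cyclic AMP. It stood at 11.10 and 9.87 in PGN-treated NOD.Idd3 cells, against 10.72 and 9.41 in unstimulated NOD.Idd3 cells, and at 11.42 and 10.79 in PGN-treated NOD cells, against 11.07 and 10.19 in unstimulated NOD cells. Replicate 1 was above replicate 2 in all 4 groups, by more than the conditions differed. The change was 0.45 ± 0.38 (adjusted p = 0.518 in limma), with a 95% interval from -0.42 to 1.31. Within each replicate number and strain the PGN-treated array was the higher, by 0.35 to 0.60.

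Ptger4 encodes EP4, the other cyclic AMP-raising receptor. It stood at 12.24 and 11.92 in PGN-treated NOD.Idd3 cells, against 12.52 and 12.86 in unstimulated NOD.Idd3 cells. Values in NOD cells were 12.50 and 12.50 with PGN, against 12.49 and 12.66 without. The PGN-treated NOD.Idd3 arrays were the lowest and the other 3 groups lay together. The averaged change was -0.34 ± 0.16 (adjusted p = 0.215 in limma), and its second probe set gave -0.31 ± 0.19.

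Alox5 encodes 5-lipoxygenase, which starts leukotriene synthesis. It stood at 7.83 and 7.79 in PGN-treated NOD.Idd3 cells, against 9.38 and 9.80 in unstimulated NOD.Idd3 cells. In NOD cells it stood at 7.20 and 7.45 with PGN, against 9.02 and 10.55 without. All PGN-treated arrays were below all unstimulated ones, and the unstimulated NOD arrays lay far apart. The averaged change was -2.12 ± 0.30, a 4.34-fold fall with an adjusted p of 0.00325 in limma. It was the second largest change of the 9 genes on the probe sets tested.

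Alox5ap encodes FLAP, which presents arachidonic acid to 5-lipoxygenase. It stood at 13.06 and 12.40 in PGN-treated NOD.Idd3 cells, against 13.32 and 13.31 in unstimulated NOD.Idd3 cells. The NOD values were 12.98 and 12.71 with PGN, against 13.49 and 13.28 without. The conditions did not overlap, but the change of -0.56 ± 0.18 missed the threshold (adjusted p = 0.0906 in limma). With the replicate block it was called (adjusted p = 0.037).

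Alox15 encodes the 12/15-lipoxygenase of mouse macrophages, which forms 12- and 15-hydroxylated products and is typical of resident peritoneal macrophages and, as human 15-lipoxygenase, of eosinophils. It stood at 5.93 and 5.89 in PGN-treated NOD.Idd3 cells, against 5.99 and 6.40 in unstimulated NOD.Idd3 cells. Its values in NOD cells were 5.58 and 5.54 with PGN, against 6.62 and 7.62 without. The unstimulated NOD arrays were the highest, and all PGN-treated values were close to the array medians. The averaged change was -0.92 ± 0.23 (adjusted p = 0.0324 in limma). This call was lost when any 1 array other than replicate 1 of unstimulated NOD was left out, with adjusted p-values from 0.0588 to 0.122.

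Markers of several cell types moved with PGN beside these falls, and their part in the results was not tested. Among all genes, 4.86% were called higher and 6.4% lower. Of 11 measured neutrophil markers, 3 were called lower and none higher, and their summed intensity was 98796 to 104360 on PGN-treated arrays and 110916 to 144949 on unstimulated arrays, without overlap. Mmp9 at -1.74 ± 0.19 and Mmp8 at -1.16 ± 0.17, both proteases of neutrophil granules, were among the 3. In value 10 of the 11 were below 0 (median -0.46). The bright S100a8 (-0.08 ± 0.15), S100a9 (-0.10 ± 0.22), Camp (-0.12 ± 0.21) and Ngp (-0.18 ± 0.15) changed little and were not called. Of 10 resident peritoneal macrophage markers 3 were called lower. The sum of all 10 was 4142 to 6313 with PGN and 6760 to 10306 without. Fn1 and F5 were the brightest of the 10 on average and so weigh most in that sum. In value 8 of the 10 were below 0 (median -0.43). Gata6, which lay at 3.90 to 4.69 and so under the array medians, changed by 0.31 ± 0.18. Timd4 changed by 0.02 ± 0.19, and neither was called. Of 12 macrophage markers none was called, and their sum was 56855 to 68955 with PGN and 54384 to 62070 without. Of 5 measured eosinophil markers 1, Siglecf, was called lower at -1.16 ± 0.29, and their sum was 323 to 703 with PGN and 406 to 1249 without. Of 8 platelet markers 2 were called lower, Pf4 and Ppbp. The sum of all 8 was 818 to 1438 with PGN and 1908 to 6536 without, again without overlap. Pf4 and Ppbp were the brightest of the 8 on average and so weigh most in that sum. In value 4 of the 8 were above 0 and 4 below (median -0.04). Gp6 went the other way at 0.59 ± 0.24 and was not called (adjusted p = 0.172 in limma). Of 7 measured T cell markers 1, Cd3d, was called lower at -1.48 ± 0.21, and their sum was 1647 to 2503 with PGN and 3654 to 6332 without, also without overlap. Of 7 measured monocyte markers Cx3cr1 was called lower at -2.66 ± 0.35 and Nr4a1 higher at 0.82 ± 0.18, and their sum was 24709 to 30297 with PGN and 22337 to 31491 without. Of 6 measured NK cell markers Prf1 was called lower at -0.52 ± 0.14, and their sum was 917 to 2199 with PGN and 991 to 2145 without. Gzma went the other way at 1.23 ± 0.70 and was not called (adjusted p = 0.318 in limma). In value 2 of the 6 were above 0 and 4 below, and the blocked fit called 1 higher and 2 lower. None of 9 measured B cell, 6 dendritic cell and 10 mast cell and basophil markers was called in limma. An unadjusted p under 0.05 was found for 2, 0 and 2 of them, against 4555 of all 18193 genes. In the blocked fit 4 B cell markers were called lower and 1 mast cell and basophil marker higher, against 9.73% lower and 7.21% higher of all genes. The mast cell and basophil sum was 349 to 484 with PGN and 283 to 297 without, and 6 of those 10 markers had means under 5 in each group.

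The strain-specific effects of PGN had the same sign in both strains for all 9 genes on the probe sets tested. In NOD.Idd3 cells 2 genes were called, Ptges (2.28 ± 0.44, adjusted p = 0.0301 in limma) and Ptges2 (1.29 ± 0.27, adjusted p = 0.0386). In NOD cells 4 were called, Ptges (3.05 ± 0.44, adjusted p = 0.00935), Pla2g4a (1.39 ± 0.21, 0.0102), Alox5 (-2.46 ± 0.43, 0.0181) and Alox15 (-1.56 ± 0.32, 0.0333). Among all genes, 1.89% were called higher and 1.25% lower in NOD.Idd3 (3.14% together), and 1.81% higher and 2.13% lower in NOD (3.94% together). In NOD.Idd3 cells Pla2g4a changed by 0.89 ± 0.21 (adjusted p = 0.0583) and Alox5 by -1.78 ± 0.43 (adjusted p = 0.0667). With the replicate block both were called (adjusted p = 0.0342 for Pla2g4a and 0.0226 for Alox5), so that 3 genes were higher and 1 lower, against 3.67% and 2.97% of all genes (6.63% together). On its second probe set Ptgs2 rose in both strains, by 4.57 ± 0.57 in NOD.Idd3 (adjusted p = 0.00685) and 4.82 ± 0.57 in NOD (adjusted p = 0.00491). On the brighter one it changed by 0.76 ± 0.47 in NOD.Idd3 and 1.62 ± 0.47 in NOD, neither called. In NOD its adjusted p was 0.103, but 0.0343 in the blocked fit, where 3.83% of genes were called higher and 4.89% lower. With 1 of the 2 arrays of a group left out, the lone array was assumed to vary like the other groups, and several calls were lost. Leaving out replicate 2 of unstimulated NOD or replicate 2 of PGN-treated NOD left 0 of 9 genes called in NOD, and leaving out replicate 1 of PGN-treated NOD left 2. In NOD.Idd3, 0 genes were called without replicate 2 of unstimulated NOD.Idd3 or without replicate 1 or 2 of PGN-treated NOD.Idd3, and 1 without replicate 1 of unstimulated NOD.Idd3 or without either PGN-treated NOD array. The changes of the genes called in each strain kept their direction over all 19 alternatives. In NOD they ran from 2.58 to 3.61 for Ptges, 1.30 to 1.49 for Pla2g4a, -3.22 to -1.69 for Alox5 and -2.05 to -1.06 for Alox15. In NOD.Idd3 they ran from 1.65 to 3.28 for Ptges and 1.10 to 1.49 for Ptges2.

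**Figure D3:**
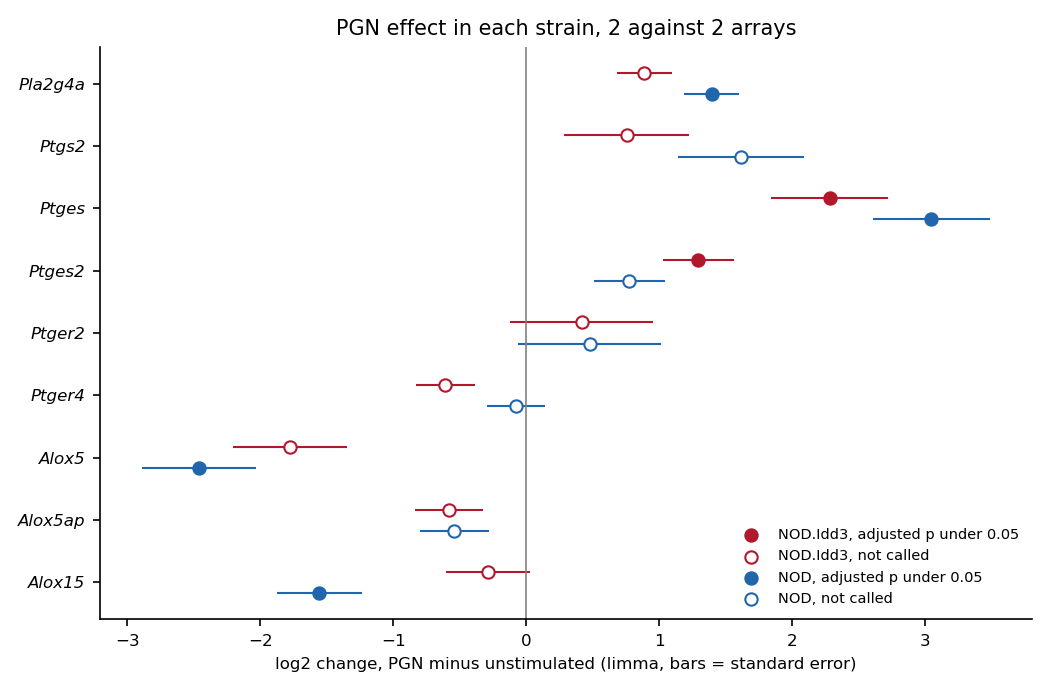
Log2 change with PGN (horizontal axis, PGN-treated minus unstimulated) for the 9 genes (vertical axis) in NOD.Idd3 (upper, red) and NOD (lower, blue), 2 against 2 arrays each. Bars are limma standard errors and filled points passed an adjusted p of 0.05. Ptges passed in both strains, and Alox15 stood at -0.29 in NOD.Idd3 and -1.56 in NOD.

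The next comparison was whether the PGN response of these genes differed between strains. The difference in response (NOD.Idd3 minus NOD) was called for none of the 9 genes in limma, nor for any of the 18193 genes (0%, with 314 at an unadjusted p under 0.05), and 1 of the 9 had an unadjusted p under 0.05. That gene was Alox15, with a difference of 1.27 ± 0.45 (unadjusted p = 0.0207, adjusted p = 1) and a 95% interval from 0.25 to 2.29. For Ptges the difference was -0.76 ± 0.62 (interval -2.17 to 0.65), but -0.08 ± 0.67 and -0.14 ± 0.66 on its other probe sets. For Ptgs2 it was -0.86 ± 0.67 on the brighter and -0.24 ± 0.80 on the second probe set. For Pla2g4a it was -0.51 ± 0.29 (interval -1.17 to 0.16) and for Alox5 0.68 ± 0.61 (interval -0.70 to 2.05). The last 2 intervals reach beyond 1 log2 unit on 1 side, so a missed threshold does not show equal responses.

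No strain difference of the 9 genes passed the threshold in either condition. Averaged over conditions, none of the 9 genes was called in limma (0% of all genes, of which 6.46% had an unadjusted p under 0.05), 1 of the 9 had an unadjusted p under 0.05, and the NOD.Idd3 and NOD arrays overlapped in all 9. Among all genes, they did not overlap in 2.85% (1.08% higher and 1.77% lower in NOD.Idd3). Ptges2 had the smallest p, with a difference of 0.52 ± 0.19 (NOD.Idd3 minus NOD, unadjusted p = 0.0229, adjusted p = 0.733). With PGN alone the difference was 0.78 ± 0.27 (adjusted p = 0.851), with 9.16 and 9.45 in NOD.Idd3 against 8.41 and 8.64 in NOD. Ptger2 differed by -0.59 ± 0.38, Alox15 by -0.29 ± 0.23 and Ptgs2 by -0.21 ± 0.33. In unstimulated cells Alox15 was at 5.99 and 6.40 in NOD.Idd3 against 6.62 and 7.62 in NOD, a difference of -0.92 ± 0.32 (unadjusted p = 0.0183, adjusted p = 1). The resident peritoneal macrophage markers had a median difference of -0.12 in the same comparison and the 5 eosinophil markers one of -0.55. Their part in the Alox15 values was not tested. For the Gapdh controls, the log2 excess of the 3' over the 5' probe set, a sign of RNA or labelling quality, was 0.72 to 0.80 on NOD.Idd3 and 0.88 to 1.16 on NOD arrays, without overlap, so it cannot be told apart from strain. The same excess for the beta-actin controls was 0.22 to 0.46 on NOD.Idd3 and 0.43 to 0.58 on NOD arrays, which overlapped. Of the 12 macrophage markers 11 were lower in NOD.Idd3 in value (median -0.75), with sums of 54384 to 59048 in NOD.Idd3 and 60696 to 68955 in NOD, without overlap. None was called in limma, with 6 at an unadjusted p under 0.05, but 4 were called lower in the blocked fit, where 0.148% of all genes were called. Mrc1 at -1.56 ± 0.17 and C1qb at -1.37 ± 0.15 had the smallest p-values of all genes without the block (adjusted p = 0.0656 for both). Of 9 measured B cell markers 8 were lower in value (median -1.10), with sums of 819 to 1540 in NOD.Idd3 and 1523 to 5212 in NOD. None of these was called, with 7 at an unadjusted p under 0.05, but 3 were called lower in the blocked fit. The part of both marker lists in the strain values was not tested.

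Other genes of the pathway were taken from 6 lists with 54 genes, of which 49 were measured. With PGN 4 of the 49 rose and 6 fell over both strains, against 4.86% and 6.4% of all genes, and the median change was 0.03. With the replicate block 6 rose and 8 fell, against 7.21% and 9.73% of all genes. The count of 10 dropped to 6 without replicate 2 of unstimulated NOD, of PGN-treated NOD or of PGN-treated NOD.Idd3, to 5 without replicate 1 of unstimulated NOD.Idd3 and to 3 without its replicate 2. The falls included enzymes just below 5-lipoxygenase and the rises included phospholipases and 1 prostanoid synthase.

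Among leukotriene conversion, export and breakdown genes, 3 of 8 measured fell and none rose (median -0.76). Of all genes, 6.4% were called lower and 4.86% higher. Lta4h encodes leukotriene A4 hydrolase, which makes leukotriene B4. It stood at 8.85 and 8.82 in PGN-treated NOD.Idd3 cells, against 9.71 and 10.44 in unstimulated NOD.Idd3 cells, and at 7.72 and 8.10 in PGN-treated NOD cells, against 8.99 and 10.41 in unstimulated NOD cells. It fell by 1.52 on the log2 scale (SE 0.31, adjusted p = 0.0152 in limma), and of its other probe sets 1426807_at changed by -1.74 ± 0.26 while the dim 1453528_at changed by 0.02 ± 0.17. Ltc4s and Mgst2 encode enzymes that can make leukotriene C4. Ltc4s changed by -1.29 ± 0.24 (adjusted p = 0.00991) and Mgst2 by -1.92 ± 0.41 (adjusted p = 0.0187). Both were lower on every PGN-treated array than on any unstimulated one. With PGN, Ltc4s stood at 5.07 to 5.30, under the array medians of 5.42 to 5.50, and the part of low signal was not tested. Cyp4f18, a leukotriene B4 omega-hydroxylase, changed by 0.70 ± 0.20 (adjusted p = 0.061; 0.0386 in the blocked fit).

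Of 4 leukotriene and lipoxin receptor genes 1 fell (median -0.13), against 6.4% of all genes. This was Ltb4r1, the high-affinity leukotriene B4 receptor gene, at 10.24 and 9.99 in PGN-treated NOD.Idd3 cells against 10.91 and 11.14 in unstimulated NOD.Idd3 cells, and at 9.45 and 9.45 in PGN-treated NOD cells against 9.98 and 10.86 in unstimulated NOD cells. Its change was -0.94 ± 0.21 (adjusted p = 0.0211 in limma). None of the 5 other lipoxygenase genes was called (median -0.02), and their means over the 8 arrays were 3.81 to 5.42.

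Of 15 measured other phospholipase A2 genes 3 rose and none fell (median 0.11), against 4.86% higher and 6.4% lower of all genes. Pla2g4e, a cytosolic member of the same group as Pla2g4a, rose by 1.63 ± 0.19 (adjusted p = 0.00134 in limma). Pla2g15, the lysosomal phospholipase, rose by 0.99 ± 0.19 (adjusted p = 0.011) and Pla2g12a, a secreted one, by 0.90 ± 0.22 (adjusted p = 0.0317). Pla2g6, the calcium-independent one, changed by 0.49 ± 0.21 (adjusted p = 0.182). Without PGN, Pla2g4e stood at 4.94 to 5.82 and Pla2g12a at 5.19 to 6.06, close to the array medians, and the part of low signal was not tested.

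Of 10 other prostanoid synthase, breakdown and transport genes 1 rose and 1 fell (median -0.03). Such calls were made for 4.86% (higher) and 6.4% (lower) of all genes. Hpgds, the hematopoietic prostaglandin D synthase gene, stood at 7.72 and 6.87 in PGN-treated NOD.Idd3 cells, against 5.99 and 5.84 in unstimulated NOD.Idd3 cells, and at 8.15 and 6.82 in PGN-treated NOD cells, against 5.85 and 6.51 in unstimulated NOD cells. Replicate 1 was the higher in both PGN-treated groups, and the averaged rise was 1.34 ± 0.32 (adjusted p = 0.0292 in limma). Ptgr2, a prostaglandin reductase gene, changed by -0.68 ± 0.18 (adjusted p = 0.0448), and its other 5 probe sets ran from -0.77 to 0.21. Tbxas1, the thromboxane synthase gene, changed by -0.77 ± 0.24 (adjusted p = 0.0803; 0.0155 in the blocked fit). Of 7 other prostanoid receptor genes 1 fell (median 0.30), the prostacyclin receptor gene Ptgir at -0.90 ± 0.19 (adjusted p = 0.0169). Ptgdr, a prostaglandin D2 receptor gene, changed by 0.57 ± 0.17 (adjusted p = 0.0659; 0.0302 in the blocked fit).

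**Figure D4:**
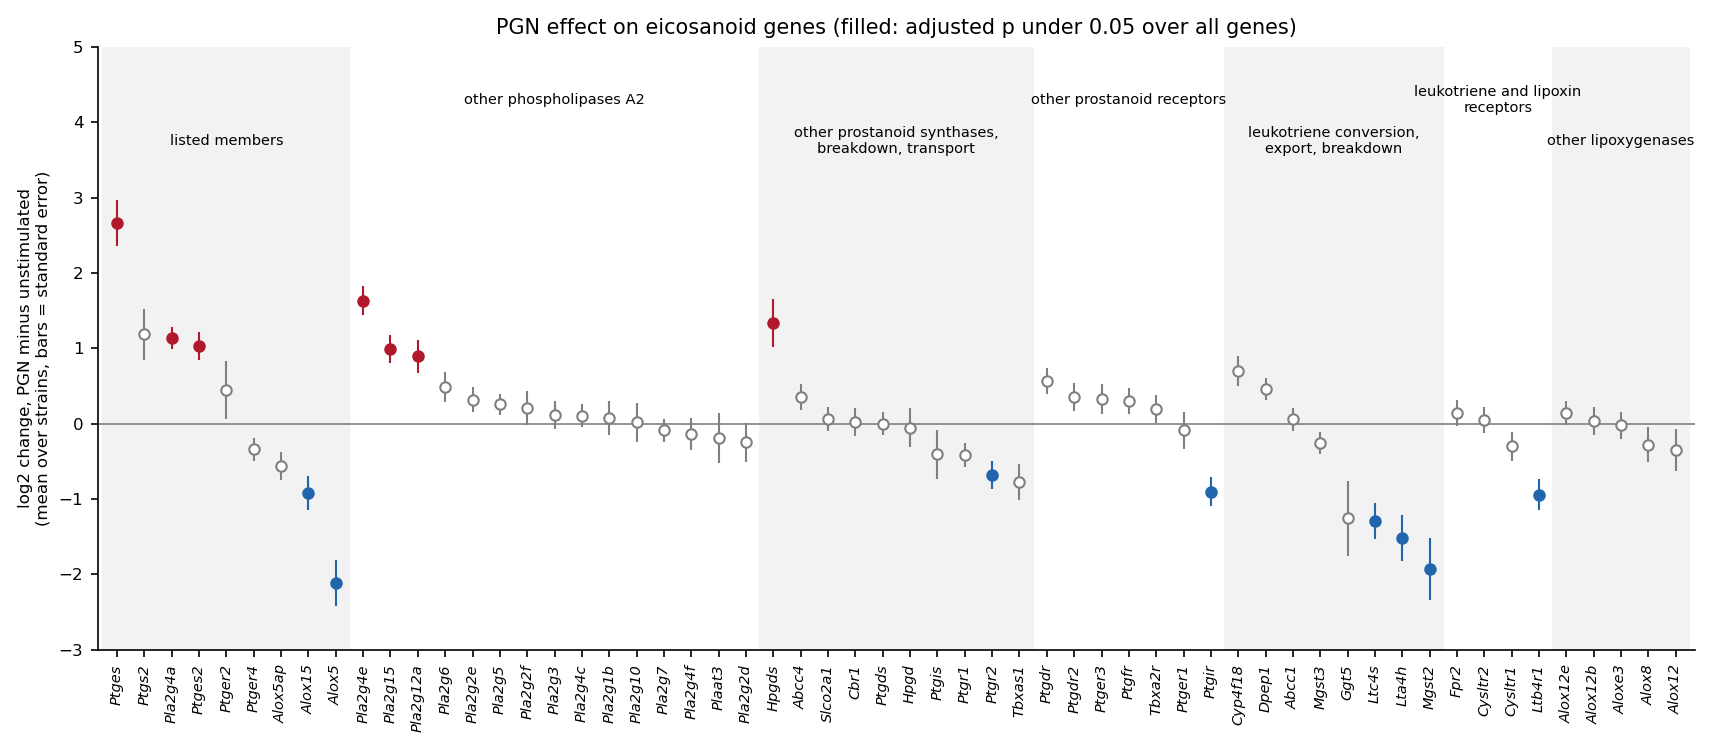
Log2 change with PGN (vertical axis, PGN-treated minus unstimulated, mean over both strains) for the 9 measured genes and 49 other genes of the pathway (horizontal axis), by list. Bars are limma standard errors and filled points passed an adjusted p of 0.05 over all genes, red for higher and blue for lower. Mgst2, Lta4h and Ltc4s were the lowest filled points among leukotriene conversion genes, beside Alox5 at -2.12 among the listed ones.

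Between strains, none of the 49 pathway genes was called by limma averaged over conditions, nor was any of the 18193 genes. Before adjustment 8 of the 49 had a p under 0.05, against 6.46% of all genes. The smallest belonged to Pla2g2d, a secreted phospholipase gene of lymphoid tissue, with a difference of -1.20 ± 0.26 (NOD.Idd3 minus NOD, unadjusted p = 0.00154, adjusted p = 0.432). The B cell markers had a median of -1.10 in the same comparison. Macrophage (-0.75), eosinophil (-0.62), platelet (-0.44) and dendritic cell markers (-0.23) also had negative medians, and monocyte (0.20) and neutrophil markers (0.16) positive ones. The part of these markers in the Pla2g2d values was not tested. Mgst3 stood at 0.55 ± 0.14 and Ltb4r1 at 0.63 ± 0.21, both with adjusted p-values above the threshold (0.59 and 0.702). Hpgd, which inactivates prostaglandins, stood at -0.86 ± 0.26 (adjusted p = 0.671).

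For listed genes whose 8 values spanned more than 2 log2 units, the 3 nearest profiles among the other genes were found as the root mean square difference of mean-centred log2 values over the 8 arrays. Nearest to Ptgs2 (brighter probe set) were Nfkbiz (0.20), Cxcl2 (0.26) and Aspg (0.27). Nearest to Ptges were Slc7a2 (0.18), Ccl4 (0.22) and Mmp14 (0.26), and nearest to Alox5 were Tbc1d10c (0.18), Unc119 (0.20) and Ethe1 (0.20). Nearest to Alox15 were Vamp1 (0.20), Dmwd (0.21) and Mdk (0.23), and nearest to Ptger2 were Ino80dos, D16Ertd472e and Entpd1 (0.17 to 0.18). For comparison, the root mean square spread of the listed gene around its own mean was 0.78 for Ptgs2, 1.41 for Ptges, 1.15 for Alox5, 0.64 for Alox15 and 0.64 for Ptger2.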

How the data were processed

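Gene expression was measured on 8 single-channel arrays, 2 in each of 4 groups of strain and PGN treatment, and samples were grouped by their labels. The deposited values are intensity values per probe set on a linear scale. The authors made them with RMA, per the submitters' processing notes, which name no version. Log2 of each deposited value was taken, with no further normalization. Of 45101 probe sets, 64 controls, 9160 without a symbol and 932 with several were left out. For each of 18193 genes, the probe set brightest on average was taken.

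Contrasts of the 4 group means were fitted in R 4.3.3 with limma 3.58.1 (4 residual and 4.69 prior degrees of freedom). Calls used a Benjamini-Hochberg adjusted p under 0.05 over all genes, and errors are limma standard errors. The fit was tested on simulated data with independent noise on each array, so differences between replicates shared by the groups were not part of that test. The number of arrays limits the precision.

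Replicate numbers were taken to pair arrays across groups, since the array names of replicate 1 share a date in the labels. The difference between replicates 1 and 2 correlated across genes between groups at 0.17 to 0.42. The reported fit has no replicate term, and the replicate block was an alternative. The listed genes, the pathway and marker lists, the tests and the alternatives were chosen with earlier results of these data known. Named pathway genes were those with the smallest p of each list, at most 4 for PGN and 2 for strain. Markers that describe the cells were chosen after their values were seen, except those called or with the 2 smallest p of their list.

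Promoter sequences came from RefSeq, build GRCm38.p6.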

Additional observations from a re-analysis of the deposited data

Results flagged for a closer look

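Among the 9 listed and 49 other pathway genes, Alox15 and Slco2a1 had effects of opposite direction in different groups, without overlap between arrays. Neither kind of reversal was more frequent here than among all genes. Alox15 was lower in NOD.Idd3 than in NOD in unstimulated cells (5.99 and 6.40 against 6.62 and 7.62) and higher with PGN (5.93 and 5.89 against 5.58 and 5.54). The difference in response was 1.27 ± 0.45 and was not called by limma (adjusted p = 1). Such a reversal was found in 2.68% of all genes. Slco2a1, a prostaglandin transporter gene, was higher with PGN in NOD.Idd3 (5.81 and 6.26 against 5.71 and 5.79) and lower in NOD (6.05 and 5.80 against 6.09 and 6.09). The closest arrays were barely apart in either strain, and only the brightest of its 4 probe sets was read. The difference in response was 0.45 ± 0.32 (adjusted p = 1 in limma), and 1.98% of all genes had effects of PGN that were opposite in this way.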

How the results depend on the processing

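Over both strains, Ptges, Ptges2, Pla2g4a and Alox5 were called in the same direction in all 18 alternatives. Alox15 was not called in 9 of them, and Ptgs2 was called in 6. The number of listed genes called was 4 to 7 over the alternatives and 4 to 6 when 1 array was left out, against the 5 reported. For PGN in NOD the count was 0 to 5 with 1 array left out, against 4. For PGN in NOD.Idd3 it was 0 to 3 with 1 array left out, against 2. It was 4 with the replicate block, with a trend in the variance prior, with the mean of all probe sets and with array weights. With a term for the array-name suffix RR1 it was 1. The share of all genes called moved as well, so changed counts are not specific to these genes. Over both strains it was 11.3% as reported, 16.9% with the block and 8.61% with the RR1 term. In NOD.Idd3 it was 3.14% as reported, 6.63% with the block and 3.31% with the mean of all probe sets. The 10 other pathway genes called became 3 to 11 with 1 array left out. In the strain contrasts and the difference in response 0 listed genes were called in every alternative. The change of Ptger4 in NOD turned to 0.022 with the mean of all probe sets and ran from -0.16 to 0.0081 with 1 array left out, above 0 without unstimulated NOD replicate 2. The change of Ptger2 in NOD.Idd3 ran from -0.24 to 1.08 with 1 array left out. It was -0.24 without unstimulated NOD.Idd3 replicate 2 and, with PGN-treated NOD.Idd3 replicate 1 left out, -0.20. None of these was called, and causes were not tested. The block removed no call among the listed genes. PGN-treated values of Alox15, from 5.54 to 5.93, lay near the array medians, and the part of low signal was not tested.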
